A study of Mus musculus with 6 samples.

Results

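The 34 genes described here are a list of immediate early response genes of the mouse, matched by gene symbol. All 34 were found among the 24410 symbols of the deposited expression table. RNA had been sequenced from 6 libraries of bone marrow-derived cells of C57BL/6 mice aged 5 months. Libraries WT 1 to WT 3 came from wild-type mice, and KO 1 to KO 3 from mice with the genotype Txnip -/-, which lack the thioredoxin-interacting protein. Lineage-negative marrow cells of both genotypes had been grown for 3 days in SFEMII with 10% FBS, murine Scf at 100 ng/mL and mTpo at 20 ng/mL, the second of these being thrombopoietin, the main growth factor of megakaryocytes. Cells carrying CD41, an integrin subunit of megakaryocytes and some early progenitors, were then sorted for RNA. The labels do not say how the allele was made, whether animals were pooled, whether the mice of both genotypes were littermates, or what the replicate numbers stand for. A pair, here, is a knockout and a wild-type library that share a number, and values are listed in the order of libraries 1, 2 and 3.

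Immediate early genes are switched on within minutes of a stimulus, without new protein synthesis, when kinases such as ERK and p38 act on factors already bound to DNA, among them serum response factor and CREB. Many of them encode transcription factors (the AP-1, EGR, KLF and NR4A families), and others encode proteins that end the response, such as MAP kinase phosphatases and factors that destroy short-lived mRNAs. In blood cells they respond to cytokines, adhesion, stress and the handling of the cells, and some take part in the differentiation of myeloid cells and megakaryocytes.

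The table gives FPKM, in which fragments are scaled by transcript length and by library size, so levels of different genes can be compared per length. FPKM summed to between 715205 and 1131641 per library, and Rpph1 and Rmrp, short noncoding RNAs, took between 10.7% and 30.4% of the sum. Depth, estimated from the spacing of low values, lay between about 13800000 fragments (KO 1) and 24100000 fragments (KO 3) in 5 libraries and could not be estimated in KO 2. For KO 1 and WT 1 another depth fitted nearly as well. Txnip was at 112, 228 and 143 FPKM in the WT libraries and at 0, 0.04 and 0 in the KO libraries, as the genotype labels state. Itga2b, which encodes CD41, lay between 83.2 and 152 FPKM, and Pf4, a megakaryocyte granule chemokine, between 465 and 1545. Mpo, a peroxidase of granulocyte precursors, lay between 782 and 1640 FPKM, so the libraries also held much RNA of other myeloid cells. In bulk RNA, fewer cells of a type and less RNA per cell cannot be told apart. Libraries numbered 1 and 2 held the Y-linked Ddx3y (between 22.8 and 41.7 FPKM) in both genotypes, while those numbered 3 had it at 0 and held Xist (48.1 and 91.6 FPKM), so the number also follows sex.

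Start regions of 28 of the 34 genes were in the RefSeq promoter table (build GRCm38.p6, 250 bases before to 50 bases after the annotated start). They were searched on both strands for the full cAMP response element TGACGTCA, the EGR site GCGNGGGCG, the AP-1 site TGANTCA and the CArG box bound by serum response factor. The EGR site was in 12 of 28 genes (42.9%, against 6.27% of all 27025 genes in the table and 12.1% of the 8628 matched genes that were tested below). The full cAMP response element was in Btg2, Dusp1 and Maff (10.7%, against 2.03% and 3.76%), the CArG box in Dusp5, Egr2 and Zfp36 (10.7%, against 1.81% and 1.52%), and the AP-1 site in Zfp36l1 (3.57%, against 8.97% and 6.00%). Of the other motifs searched, the shorter TGACG, which is part of the full cAMP response element, was in 60.7% of the 28 members (23.0% of all genes and 36.8% of those tested) and a TATA box in 39.3% (21.4% and 11.7%). The KLF/SP site GGGCGG was in 85.7% (38.2% and 69.3%) and the ETS core CCGGAAG in 7.14% (9.93% and 21.7%). A match is a description of the letters and not of binding, and genes with several annotated starts count if any of their windows holds the site. Sites farther than 250 bases before the start were not searched. Egr1, Egr3, Ier2, Klf10, Dusp4 and Fosl1 were not in the promoter table, so nothing is known here of their sites. These 4 start regions are shown because they hold the CArG box or the cAMP response element and belong to members with different patterns over the libraries: Zfp36, Dusp1 and Btg2 were highest in library 1 of both genotypes, and Dusp5 was highest in library 2 of both. Each is printed 5′ to 3′ on the gene's strand, with matches to the first 4 motifs in capitals. Zfp36 (chr7:28379179-28379478, minus strand) has an EGR site and a CArG box, Dusp1 (chr17:26508423-26508722, minus strand) and Btg2 (chr1:134079106-134079405, minus strand) a cAMP response element, followed in Btg2 by an EGR site, and Dusp5 (chr19:53528895-53529194, plus strand) a pair of adjacent CArG boxes.
Zfp36: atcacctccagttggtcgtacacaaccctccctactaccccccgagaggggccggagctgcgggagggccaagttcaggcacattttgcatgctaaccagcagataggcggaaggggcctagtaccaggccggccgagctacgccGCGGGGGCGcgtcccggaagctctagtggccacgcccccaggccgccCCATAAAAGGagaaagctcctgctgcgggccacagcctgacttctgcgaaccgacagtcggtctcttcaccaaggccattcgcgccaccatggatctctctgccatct
Dusp1: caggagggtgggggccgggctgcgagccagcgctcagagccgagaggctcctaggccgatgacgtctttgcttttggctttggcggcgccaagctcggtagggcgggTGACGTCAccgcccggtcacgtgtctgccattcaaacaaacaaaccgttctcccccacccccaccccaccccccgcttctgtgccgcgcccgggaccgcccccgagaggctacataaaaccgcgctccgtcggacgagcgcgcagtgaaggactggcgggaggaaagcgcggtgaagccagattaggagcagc
Btg2: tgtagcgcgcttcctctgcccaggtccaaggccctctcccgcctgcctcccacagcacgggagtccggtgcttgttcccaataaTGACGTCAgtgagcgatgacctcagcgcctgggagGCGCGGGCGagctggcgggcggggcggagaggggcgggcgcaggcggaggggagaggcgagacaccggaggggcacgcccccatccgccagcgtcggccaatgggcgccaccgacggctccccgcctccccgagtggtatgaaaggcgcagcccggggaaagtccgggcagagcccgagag
Dusp5: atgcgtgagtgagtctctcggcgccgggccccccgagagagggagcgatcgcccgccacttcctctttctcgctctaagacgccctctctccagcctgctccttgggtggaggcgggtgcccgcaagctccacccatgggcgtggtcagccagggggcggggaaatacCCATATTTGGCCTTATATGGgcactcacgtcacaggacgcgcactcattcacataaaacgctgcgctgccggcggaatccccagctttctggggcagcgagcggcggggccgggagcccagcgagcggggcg

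Most of these genes had higher values in the knockout libraries, and none passed the test. Of the 34 members, 31 had at least 1 FPKM in at least 3 libraries and were tested, with limma on log2(FPKM + 1). The difference, KO minus WT, was above 0 in 30 of the 31 and below 0 in 1, Dusp6. Over all 11249 genes tested, 63.4% were above 0. The members' median difference was 0.33, against 0.06 over all genes tested. With libraries rescaled to a common sum of FPKM these medians were 0.48 and 0.22. After adjustment over all genes, 0 of 31 members passed (limma, adjusted p = 1.00 for each), against 0.0178% of all genes. With the replicate number as a block, 0 of 31 passed as well, against 0.0267%. At an unadjusted p under 0.05, 1 member fell there without the block (0.676% of all genes) and 9 with it (6.93% of all genes): Ier5, Dusp5, Btg1, Dusp2, Junb, Jun, Jund, Maff and Gadd45b.

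**Figure D1:**
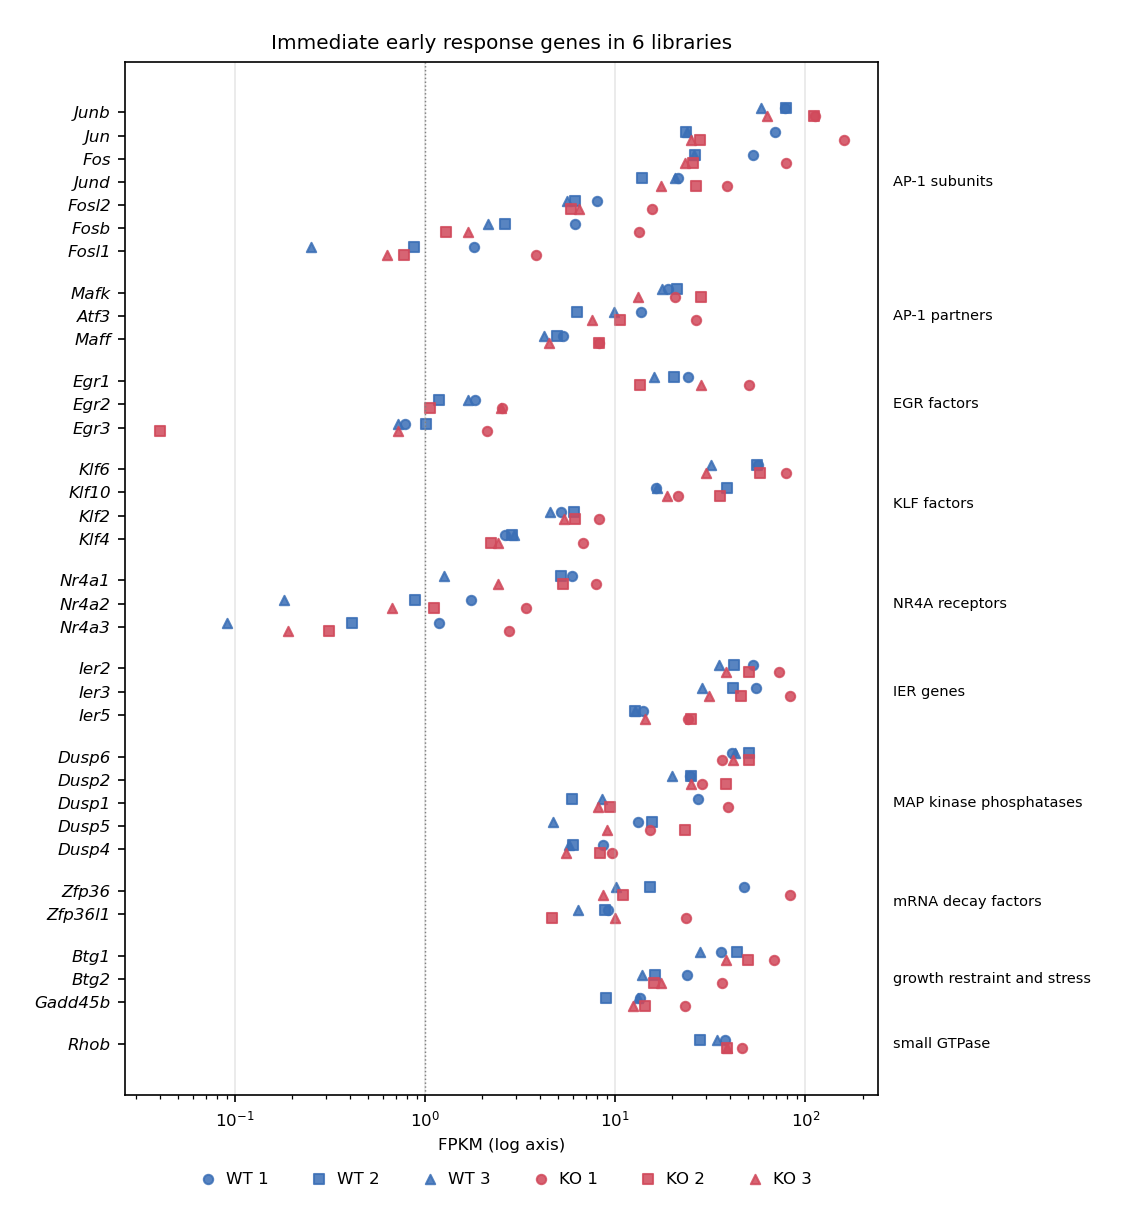
FPKM of the 34 genes (log axis, 1 point per library; blue, WT; red, KO; circles, squares and triangles, libraries 1, 2 and 3), ordered by role. The KO 1 circle is the highest point of most genes, and the dotted line marks 1 FPKM.

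The excess in the knockout was largest in pair 1. In pair 1, 30 of 31 tested members were higher in KO (55.3% of all genes), with a median difference of 0.58. In pair 2, 21 of 31 were higher (58.8% of all genes), with a median of 0.17, and in pair 3, 19 of 31 (57.8% of all genes), with a median of 0.12. The corresponding medians over all genes tested were 0.04, 0.09 and 0.05. Higher in all 3 pairs were 13 of 31 members, against 20.4% of all genes. KO 1 was the highest of the 6 libraries for 25 of 31 members, against 33.7% of all genes. Summed over the 34 genes, the level was 796, 637 and 508 FPKM in the WT libraries and 1254, 756 and 552 in the KO libraries. Libraries fell in the same order, 1 over 2 over 3, in both genotypes, and each KO sum was above the WT sum of its number. Without KO 1, 18 of 31 members were above 0 (51.6% of all genes) and the median was 0.020 (0.0096 over all genes). That fit keeps WT 1, the highest WT library for 22 of 31 members. In the blocked fit without pair 1, 24 of 31 were above 0 (62.9% of all genes) and the median was 0.16 (0.07 over all genes). Leaving out WT 3 instead gave a median of 0.18, and leaving out KO 3 gave 0.50.

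**Figure D2:**
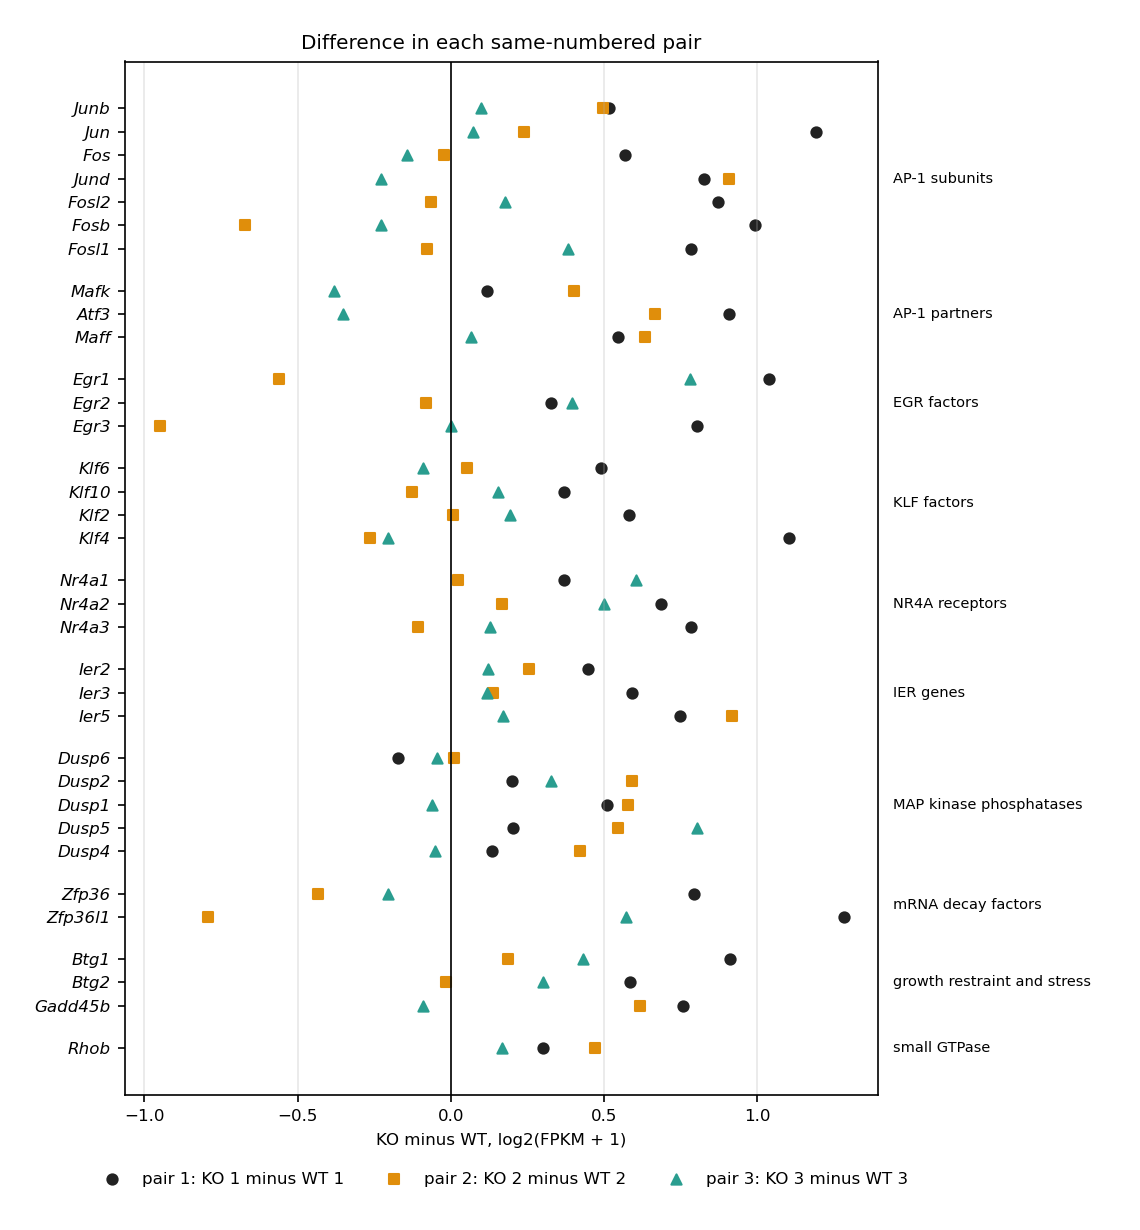
KO minus WT on the log2(FPKM + 1) scale within pair 1 (black circles), pair 2 (orange squares) and pair 3 (green triangles) for each of the 34 genes, ordered by role. Pair 1 lies right of 0 for 30 of the 31 tested members, while pairs 2 and 3 lie on both sides.

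In 2 members, Ier5 and Rhob, the groups were separate, with the knockout above (3.32% of all genes tested), and in 0 members with the knockout below (1.03% of all genes). Ier5, a short-lived regulator of the stress response, was at 13.97, 12.7 and 12.6 FPKM in the WT libraries and at 24.1, 24.9 and 14.3 in the KO libraries. The WT values were close together, and KO 3 lay just above them. Its difference was 0.61 (SE 0.25; limma, adjusted p = 1.00), and KO was the higher in 3 of 3 pairs. Rhob, a small GTPase of endosomes and the actin cytoskeleton that is induced by growth factors and DNA damage, was at 37.6, 27.8 and 34.4 FPKM in WT and at 46.6, 38.9 and 38.8 in KO. Its KO values began just above WT 1, and the difference was 0.31 (SE 0.21; limma, adjusted p = 1.00), and KO was the higher in 3 of 3 pairs.

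AP-1 is a family of dimeric factors built from Jun and Fos proteins. Junb had the highest mean level of the members, at 78.5, 78.9 and 58.5 FPKM in the WT libraries and 113, 112 and 62.8 in the KO libraries. Its groups overlapped through KO 3 alone, and the difference was 0.37 (SE 0.27; limma, adjusted p = 1.00), and KO was the higher in 3 of 3 pairs. Jund, the least inducible Jun protein, was at 21.3, 13.8 and 20.5 FPKM in WT and 38.5, 26.7 and 17.4 in KO, with a difference of 0.50 (SE 0.31; limma, adjusted p = 1.00) and a lower value in KO in pair 3. Jun itself was at 69.0, 23.5 and 23.8 FPKM in WT and 159, 27.99 and 25.1 in KO. Library 1 stood far above libraries 2 and 3 in both genotypes, and KO 1 was 2.31-fold above WT 1, against 1.19-fold and 1.05-fold in pairs 2 and 3. Fos, the partner of Jun in classical AP-1, was at 53.1, 26.2 and 25.9 FPKM in WT and 79.2, 25.8 and 23.4 in KO, so only pair 1 was higher in KO. Fosb was at 6.17, 2.63 and 2.13 FPKM in WT and 13.3, 1.28 and 1.67 in KO, again higher in KO in pair 1 alone. Fosl2 lay between 5.56 and 8.02 FPKM in WT and between 5.84 and 15.5 in KO. Fosl1 lay between 0.25 and 3.84 FPKM and was not tested.

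Atf3, Maff and Mafk encode other leucine zipper factors, and these 3 members were higher in KO in pairs 1 and 2. Atf3, a stress-induced repressor, was at 13.7, 6.28 and 9.88 FPKM in WT and 26.7, 10.6 and 7.53 in KO. KO was higher in pairs 1 and 2 and lower in pair 3, and the difference was 0.41 (SE 0.45; limma, adjusted p = 1.00). The small Maf gene Maff was at 5.32, 4.93 and 4.24 FPKM in WT and 8.22, 8.21 and 4.49 in KO, a difference of 0.42 (SE 0.28; limma, adjusted p = 1.00), and KO was the higher in 3 of 3 pairs. Mafk, whose protein is a partner of the megakaryocyte factor NF-E2, lay between 17.5 and 21.1 FPKM in WT and between 13.2 and 28.2 in KO.

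Egr1, a zinc finger factor downstream of ERK, was at 24.1, 20.2 and 16.0 FPKM in the WT libraries and at 50.7, 13.4 and 28.1 in the KO libraries. KO 1 and KO 3 lay above all WT libraries and KO 2 below them, with a difference of 0.42 (SE 0.42; limma, adjusted p = 1.00). Its relatives were scarce, Egr2 between 1.06 and 2.54 FPKM and Egr3 between 0.04 and 2.11, and Egr3 was not tested. The lowest value of both was in KO 2, as for Egr1.

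Of the KLF factors, Klf6 and Klf10 were the most abundant. Klf6 lay between 32.0 and 56.2 FPKM in WT and between 30.0 and 79.4 in KO. Klf10, which is induced by TGF-beta, was highest in library 2 of both genotypes, at 38.9 FPKM in WT 2 and 35.5 in KO 2, and between 16.3 and 21.4 in the other 4. Klf2, a factor of quiescence in lymphocytes and endothelium, was at 5.16, 6.10 and 4.56 FPKM in WT and 8.23, 6.14 and 5.36 in KO, a difference of 0.26 (SE 0.25; limma, adjusted p = 1.00), and KO was the higher in 3 of 3 pairs. Klf4, a monocyte differentiation factor, was between 2.62 and 2.94 FPKM in WT and at 6.79, 2.21 and 2.42 in KO, so KO 1 alone stood above WT.

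The NR4A genes encode nuclear receptors whose activity is set mainly by their abundance. Nr4a2 was at 1.74, 0.88 and 0.18 FPKM in WT and 3.41, 1.11 and 0.67 in KO. Both genotypes fell in the order of libraries 1, 2 and 3, and the difference was 0.45 (SE 0.44; limma, adjusted p = 1.00), and KO was the higher in 3 of 3 pairs. Nr4a1 lay between 1.25 and 5.92 FPKM in WT and between 2.42 and 7.94 in KO, also higher in 3 of 3 pairs, and Nr4a3 lay between 0.09 and 2.75 over all 6 libraries and was not tested.

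Ier2 and Ier3 were abundant and ordered by library number. Ier2, a nuclear protein induced by growth factors, was at 53.3, 42.2 and 35.3 FPKM in the WT libraries and at 73.0, 50.6 and 38.5 in the KO libraries, a difference of 0.28 (SE 0.28; limma, adjusted p = 1.00). Each KO library was above the WT library of its number, but the groups overlapped. Ier3, a regulator of survival and of ERK signalling, lay between 28.5 and 54.8 FPKM in WT and between 30.98 and 83.2 in KO, higher in 3 of 3 pairs.

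The Dusp genes encode phosphatases that switch MAP kinases off. Dusp2, a nuclear phosphatase of blood cells, was at 24.8, 25.0 and 19.8 FPKM in WT and 28.7, 38.2 and 25.0 in KO. KO 3 and WT 2 had the same value, every other KO value was above all WT values, and the difference was 0.37 (SE 0.23; limma, adjusted p = 1.00), and KO was the higher in 3 of 3 pairs. Dusp5, specific for nuclear ERK, was at 13.2, 15.6 and 4.73 FPKM in WT and 15.3, 23.3 and 9.0 in KO, a difference of 0.52 (SE 0.46; limma, adjusted p = 1.00), and KO was the higher in 3 of 3 pairs though the groups overlapped. Dusp1, which acts on p38 and JNK, was at 27.1, 5.95 and 8.49 FPKM in WT and 39.0, 9.38 and 8.09 in KO, so library 1 was high in both genotypes. Dusp4 lay between 5.48 and 9.60 FPKM. Dusp6, the cytoplasmic ERK phosphatase, lay between 41.3 and 50.3 FPKM in WT and between 36.5 and 50.7 in KO, with a difference of -0.07 (SE 0.21).

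Zfp36 encodes tristetraprolin, which binds AU-rich elements and promotes decay of cytokine and immediate early mRNAs. It was at 47.4, 15.2 and 10.1 FPKM in the WT libraries and at 83.0, 11.01 and 8.64 in the KO libraries. KO was higher in pair 1 and lower in pairs 2 and 3. Its paralog Zfp36l1 was at 9.13, 8.78 and 6.36 FPKM in WT and 23.6, 4.65 and 9.95 in KO, with the highest and the lowest value both in KO libraries.

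Btg1 and Btg2 restrain proliferation, partly by recruiting mRNA deadenylases. Btg1 was at 35.8, 43.7 and 27.99 FPKM in WT and 68.2, 49.8 and 38.1 in KO, with overlap only through KO 3 and a difference of 0.51 (SE 0.27; limma, adjusted p = 1.00), and KO was the higher in 3 of 3 pairs. Btg2, a p53 target, lay between 13.9 and 23.9 FPKM in WT and between 16.1 and 36.3 in KO. Gadd45b, a stress sensor that activates p38 and JNK kinases, was at 13.4, 8.98 and 13.2 FPKM in WT and 23.4, 14.3 and 12.3 in KO, a difference of 0.43 (SE 0.29; limma, adjusted p = 1.00), higher in pairs 1 and 2.

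The library number separated many members more than the genotype did. In both genotypes library 1 was the highest for 21 of 31 tested members (38.5% of all genes). A comparison added after these values were seen set the libraries numbered 1 against the mean of numbers 2 and 3, with genotype in the model. Since number 1 had already been seen to be the highest, its p-values carry that choice and are only a description. Numbers 1 and 2 held Ddx3y and number 3 held Xist, so libraries with Ddx3y were set against a mean of libraries with Ddx3y and with Xist. In that comparison sex and other differences between numbers cannot be told apart. Of 31 members, 15 were higher in number 1 (limma, adjusted p under the threshold; 24.4% of all genes) and 0 lower (11% of all genes). Zfp36 was higher by 2.41 (SE 0.23; limma, adjusted p = 0.000481), Jun by 2.02 (SE 0.22; adjusted p = 0.000834), Dusp1 by 1.92 (SE 0.18; adjusted p = 0.000428), Fosb by 1.81 (SE 0.30; adjusted p = 0.00225) and Fos by 1.32 (SE 0.18; adjusted p = 0.00119), each in 2 of 2 genotypes. The other 10 were Atf3, Nr4a2, Zfp36l1, Nr4a1, Ier3, Egr1, Btg2, Fosl2, Klf6 and Ier2. Without KO 1, 4 of 31 passed, against 4.51% of all genes: Zfp36 (1.85), Dusp1 (1.79), Jun (1.5) and Fos (1.00). WT 1 alone was 3.74-fold above the mean of WT 2 and WT 3 for Zfp36, 3.75-fold for Dusp1, 2.91-fold for Jun and 2.04-fold for Fos. Of the kinases and factors that feed into these genes 15 of 32 were also called higher in number 1 and 2 lower, and of further early and feedback genes 24 of 51 higher and 3 lower. The 10 members with the smallest genotype p, from Ier5 to Klf2, were not among the 15. Without a block the difference between numbers is part of the error of the genotype test, which raises the p of the 15. With the block that part is removed, yet Jun alone of the 15 was among the 9 members listed above for the blocked fit. Why the others of the 15 were not among them was not tested.

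**Figure D3:**
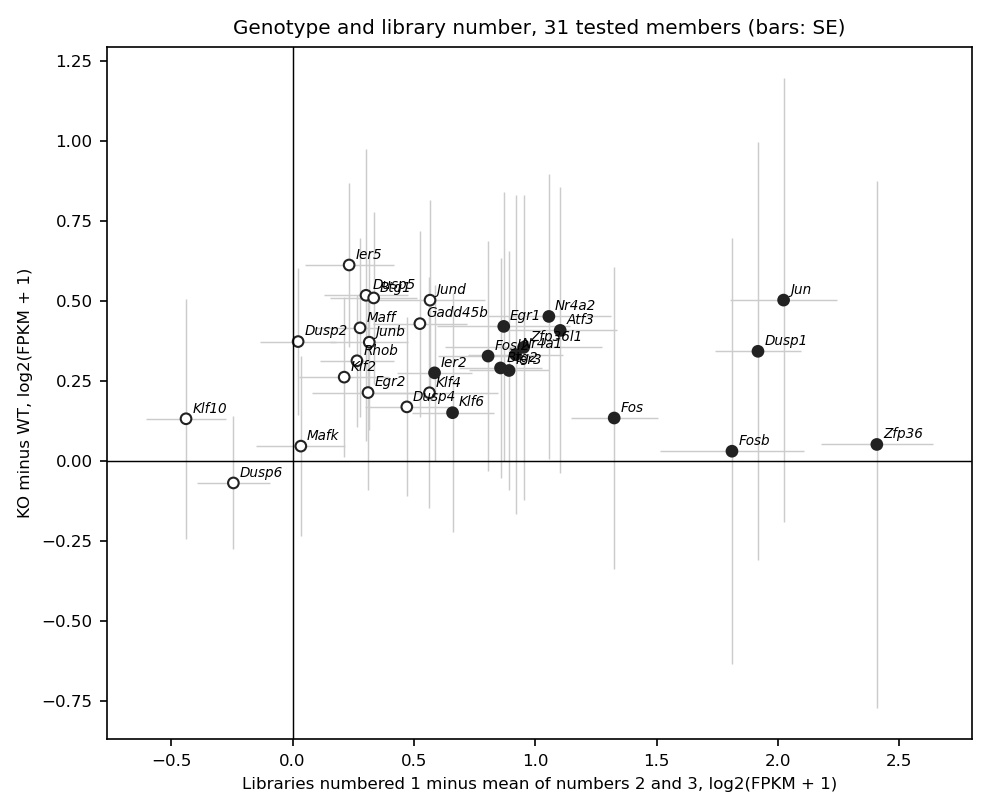
Difference of libraries numbered 1 from the mean of numbers 2 and 3 (horizontal) against KO minus WT (vertical), both on the log2(FPKM + 1) scale, for the 31 tested members (bars, SE; filled points, past the threshold for the number). Zfp36, Jun, Dusp1 and Fosb lie far right, Ier5 highest, and Dusp6 alone below 0.

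Whether the genotype difference in pair 1 was unlike that of pairs 2 and 3 was tested in a further added comparison, with genotype and number in the model. Since pair 1 had already been seen to stand apart, its direction is only a description: the difference was larger in pair 1 for 26 of 31 members, against 48% of all genes. None passed (0 of 31; limma), against 0.116% of all genes. The largest were Fosb at 1.44 (SE 0.51; limma, adjusted p = 1.00) and Zfp36l1 at 1.39 (SE 0.44; limma, adjusted p = 0.577). The fit has 1 residual degree of freedom and KO 1 is a lone library in it, so an effect of genotype in that pair and a feature of that library cannot be told apart. With the block and pair 1 left out, 0 of 31 members passed (limma; 0.32% of all genes). Without pair 2, 3 passed, Egr1 (0.91; limma, adjusted p = 0.000728), Zfp36l1 (0.93; adjusted p = 0.00436) and Btg1 (0.67; adjusted p = 0.0133), against 1.26% of all genes. Without pair 3, the 3 that passed were Jund (0.87; limma, adjusted p = 0.0165), Ier5 (0.83; adjusted p = 0.0234) and Atf3 (0.79; adjusted p = 0.0401), against 1.05% of all genes. No member passed in both. In the pair left out, KO was lower for Egr1 (-0.56), Zfp36l1 (-0.79), Jund (-0.23) and Atf3 (-0.35), and higher for Btg1 (0.19) and Ier5 (0.17). Each of these fits rests on 2 pairs and has 1 residual degree of freedom. The p-values therefore leave out the pair that went the other way for Egr1, Zfp36l1, Jund and Atf3.

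**Figure D4:**
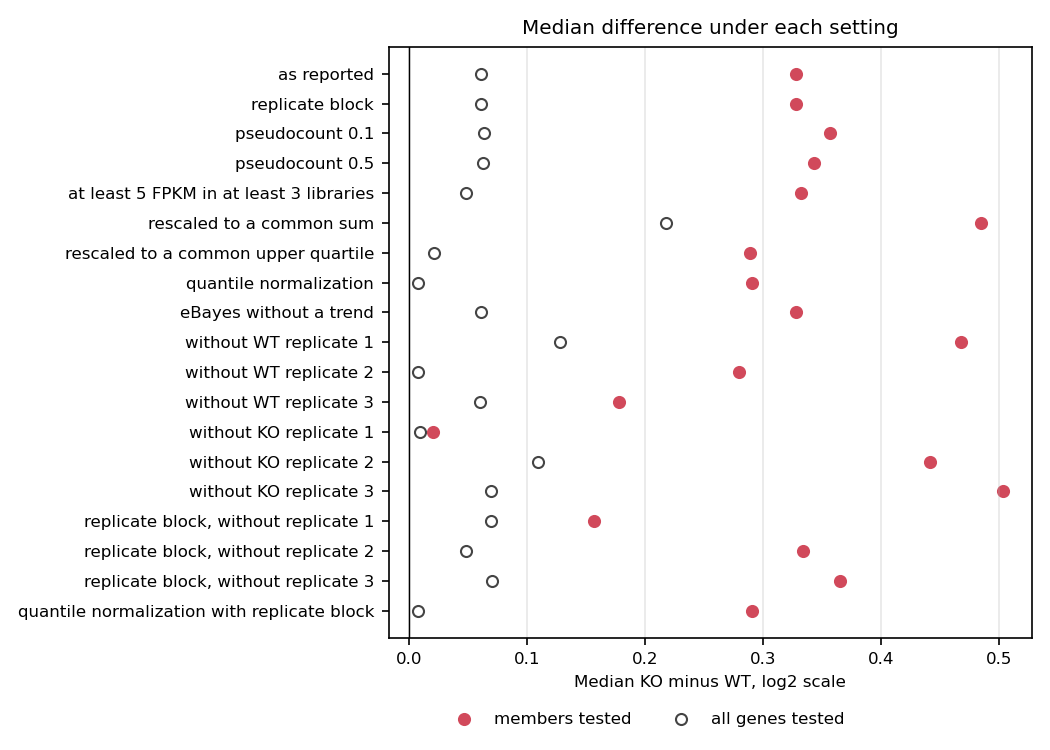
Median KO minus WT (log2 scale) of the tested members (red) and of all genes tested (open) under each setting except that with no low-value filter. The members' median falls to 0.020 without KO 1 and to 0.16 in the blocked fit without pair 1, and reaches 0.50 without KO 3.

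Other genes of the response were read from lists of related genes. Of 32 kinases and SRF or CREB pathway factors, 24 were higher and 8 lower in KO and 0 passed, with a median of 0.08. Those of smallest p were Mapk9 (JNK2; WT 12.9 ± 1.39 FPKM, KO 15.9 ± 1.24, SD, n = 3 each), Rps6ka4 (8.36 ± 3.38 and 11.1 ± 2.77), Map2k2 (27.4 ± 9.38 and 33.3 ± 4.38) and Rps6ka5 (9.86 ± 0.64 and 11.3 ± 0.44). Srf itself lay between 11.2 and 18.4 FPKM in WT and between 14.7 and 18.9 in KO. Of 16 tested genes of other leucine zipper factors, 14 were higher and 2 lower, with a median of 0.20 and 0 past the threshold. Cebpb, a myeloid factor, was at 17.5, 15.8 and 23.7 FPKM in WT and 29.4, 46.8 and 23.0 in KO. Cebpd was 12.2 ± 0.83 and 15.4 ± 1.38 FPKM, and Bach1 20.0 ± 3.80 and 24.7 ± 4.32 (SD, n = 3 each). Of 51 tested further early and feedback genes, 33 were higher and 18 lower, with a median of 0.19 and pair medians of 0.39, 0.14 and 0.00, and 0 passed. The kinase gene Pim1 was at 74.98, 78.1 and 70.2 FPKM in WT and 93.3, 115 and 85.3 in KO, and Sgk1 at 6.44, 6.78 and 4.01 and at 11.4, 10.8 and 5.41. Gem, a small GTPase, went the other way at 25.3, 31.3 and 35.0 FPKM in WT and 15.8, 26.9 and 22.6 in KO. Csrnp2 was 1.73 ± 0.33 and 2.74 ± 0.29 FPKM (SD, n = 3 each).

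Heat shock genes were read as a sign of stress or handling. Of 11 tested, 4 were higher and 7 lower in KO, with a median of -0.06, pair medians of -0.16, 0.02 and -0.04, and 0 past the threshold. Hspa1a, the inducible chaperone, was at 0.70, 0.09 and 0.31 FPKM in WT and 2.21, 2.49 and 1.05 in KO. Its groups were separate, with the knockout above (3.32% of all genes tested), and the difference was 1.08 (SE 0.32). It did not pass, and its WT values were all under 1 FPKM. The part of stress or handling in the immediate early values was not tested. Hspe1 was 233 ± 46.0 and 187 ± 32.6 FPKM, Hsp90aa1 692 ± 81.9 and 587 ± 139, and Dnaja1 29.5 ± 5.14 and 26.2 ± 7.93 (SD, n = 3 each). In the comparison of numbers, 4 of the 11 were called higher in number 1 and 1 lower (24.4% and 11% of all genes). Their median there was 0.31, against 0.15 over all genes.

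Markers of monocytes, macrophages and dendritic cells also differed most in pair 1, where 23 of 23 were higher in KO. Of 23 tested markers 21 were higher and 2 lower in KO and 0 passed, with a median of 0.44 and pair medians of 1.00, 0.33 and -0.01. Their summed level ranged from 1636 to 2810 FPKM in WT and from 1982 to 3157 in KO, with KO 1 the highest and WT 1 the lowest, and 0 of 25 were at 0 in all libraries. H2-Ab1, which encodes a chain of MHC class II, was at 109, 88.1 and 108 FPKM in WT and 250, 163 and 98.4 in KO, and Csf1r, the receptor of a macrophage growth factor, at 34.1, 16.4 and 41.9 and at 70.8, 22.5 and 42.6. C1qa, a macrophage complement gene, was at 1.36, 0.68 and 10.2 FPKM in WT and 8.64, 4.92 and 8.13 in KO, and C1qc at 3.35, 1.94 and 9.85 and at 11.6, 3.99 and 10.8. The part of these cells in the immediate early values was not tested. In the comparison of numbers, 18 of the 23 markers were higher in number 1, against 6890 of all 11249 genes tested. The median was 0.53, against 0.15 over all genes. Of the 23, 8 were called higher and 1 lower, against 24.4% and 11% of all genes.

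Markers of other cells also differed between library numbers. Megakaryocyte markers summed to 678, 1838 and 1428 FPKM in the WT libraries and 712, 1935 and 1069 in the KO libraries, lowest in library 1 of both genotypes. Of 15 tested, 9 were higher and 6 lower in KO, with a median of 0.05. Gp1ba was 2.93 ± 1.06 and 4.48 ± 3.00 FPKM, Itga2b 101 ± 15.6 and 118 ± 30.4, Gp9 25.7 ± 7.90 and 22.6 ± 5.95, and Vwf 4.28 ± 2.04 and 5.02 ± 2.51 (SD, n = 3 each). Mast cell and basophil markers summed to 1737, 1217 and 1140 FPKM in WT and 1591, 1181 and 710 in KO, highest in library 1 of both, with 2 of 12 higher and 10 lower in KO. Fcer1a was 28.9 ± 5.23 and 13.8 ± 4.35 FPKM, Ms4a2 48.3 ± 9.15 and 33.9 ± 13.6, Cpa3 287 ± 115 and 185 ± 70.2, and Mcpt8 484 ± 144 and 401 ± 172 (SD, n = 3 each). Neutrophil markers ranged from 5868 to 7486 FPKM in WT and from 3908 to 8887 in KO, lowest in KO 1, with 5 of 12 higher and 7 lower. S100a8 was 1454 ± 289 and 995 ± 659 FPKM, S100a9 1015 ± 427 and 753 ± 490, Mpo 1324 ± 435 and 1149 ± 428, and Ctsg 1830 ± 580 and 1623 ± 647 (SD, n = 3 each). Erythroid markers ranged from 142 to 202 FPKM in WT and from 94.6 to 159 in KO, with 1 of 7 higher, and Hba-a2 was at 0 throughout. Hba-a1 was 7.81 ± 3.91 and 2.19 ± 1.40 FPKM, Tfrc 87.9 ± 1.38 and 67.9 ± 23.3, Hbb-b1 22.4 ± 9.25 and 17.5 ± 9.95, and Klf1 7.49 ± 0.15 and 6.88 ± 1.78 (SD, n = 3 each). Lymphocyte markers stayed between 84.98 and 125 FPKM, of which Nkg7 alone, also made by myeloid cells, gave between 75.8 and 113, with Cd79b between 7.30 and 15.6 and Pax5, Cd3e and Gzma at 0. Stromal and endothelial markers stayed between 6.12 and 8.04 FPKM in all, Pdgfrb between 2.79 and 5.75 and Tek between 1.23 and 1.63, with Col3a1 and Cxcl12 at 0. No marker in these lists passed the test of genotype. In the comparison of number 1 with numbers 2 and 3, 8 of 15 megakaryocyte markers were called lower and 2 higher, 8 of 12 mast cell and basophil markers higher and 0 lower, and 3 of 12 neutrophil markers lower and 0 higher. Over all genes tested, 24.4% were called higher and 11% lower. The part of these marker differences in the immediate early values was not tested.

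**Figure D5:**
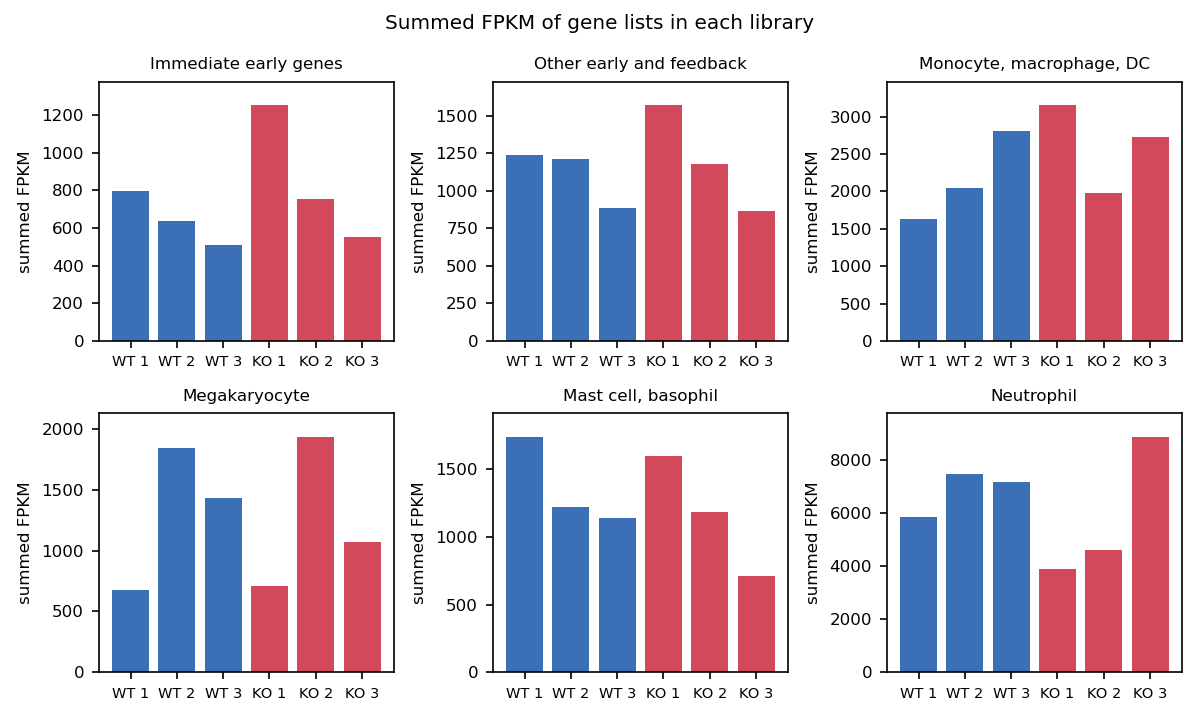
Summed FPKM per library (bars; blue, WT; red, KO) of the 34 immediate early genes, the other early and feedback genes, and markers of 4 cell groups (DC, dendritic cells). Immediate early genes are highest in KO 1 at 1254, monocyte markers are lowest in WT 1 at 1636, and megakaryocyte markers are low in library 1 of both genotypes.

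Gene structure was not used to choose the members. In GENCODE M21 (GRCm38), every protein-coding transcript has 1 exon for 6 of the 34 members (17.6%), namely Jun, Junb, Jund, Ier2, Ier5 and Rhob, against 2.15% of 10464 matched genes that were tested. Of these 6, Ier5, Jund, Rhob and Junb were among the 8 members of smallest genotype p. Ier2 and Jun were not (limma, unadjusted p = 0.35 and 0.49). None of the 6 passed, and a link between exon number and the difference was not tested. In the same annotation 10 of the 34 members overlap a gene on the other strand (29.4%, against 44.1% of 10807 matched genes that were tested), among them Junb (Prdx2), Jun (Junos), Dusp1 (Ergic1), Mafk (Tmem184a) and Fosl1 (Ccdc85b). The strand setting of the libraries is not given in the sources used here, so their values may include reads of those neighbours.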

How the data were processed

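RNA-seq values of 6 libraries were used. According to the submitters' processing notes, the tools behind the table were RSEM 1.2.31, STAR 2.7.0a, Trimmomatic 0.39 and FastQC, on the build mm9. For their settings, the annotation and strandedness, the sources used here say nothing. The deposited values are the authors' FPKM per gene symbol with 2 decimals, and RSEM values of similar genes depend on each other. Groups and numbers came from the sample titles.

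KO was compared with WT by limma 3.58.1 in R 4.3.3 (lmFit, eBayes with a trend, two-sided) on log2(FPKM + 1), which understates changes of low genes, for the 11249 genes that reached 1 FPKM in 3 or more libraries. P-values were adjusted by the Benjamini-Hochberg method, and the threshold was 0.05. The fit was tested on simulated data with larger changes than those of the members, independent noise and no difference between library numbers. That test does not cover changes as small as those of the members. The labels do not name separate animals, so p-values measure only a spread among samples that may be partly technical. By Ddx3y and Xist each genotype held libraries of both sexes, so that spread also includes a difference between animals of different sex. Whether libraries of the same sex came from separate animals is not known. Deviations from group means correlated across genes between same-numbered WT and KO libraries (r of 0.81, 0.59 and 0.38), so the numbers were taken to pair the samples. With KO libraries of other numbers, r was at most -0.25, -0.04 and 0.10 for WT 1, WT 2 and WT 3, so the third pair was the least distinct. Genotype SE and adjusted p of single members are from the fit without the block, except where a blocked fit is named. Depth was estimated where low values of genes with 1 GENCODE transcript, after taking 150 bases off its length, were spaced as whole fragments. No interval was computed. The score of that spacing was nearly as high at another depth in KO 1 (0.574 against 0.633) and WT 1 (0.500 against 0.578), so these estimates are not secure.

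Members and lists were chosen with earlier results of these data known. Values of each library, differences and SE are given for the 14 tested members of smallest p and any with separate groups; other lists give their 4 members of smallest p, except 1 gene that is not reported here. Some further genes (Csf1r, Pf4, Mpo and Srf among them) were picked to describe the cells or the pathway.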

Additional observations from a re-analysis of the deposited data

How the results depend on the processing

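Over the alternatives tried without a block (pseudocounts of 0.1 and 0.5, no filter, at least 5 FPKM, 3 rescalings, eBayes without a trend, each library left out), 0 members passed. The replicate block left the members' median at 0.33 and their count past the threshold at 0, and 3 genes passed in all, against 2. With the block and 1 pair left out, 36 (without replicate 1), 142 (without replicate 2) and 118 (without replicate 3) genes passed, and 0, 3 and 3 members. Without the low-value filter 1 gene passed. With a library left out, genes past the threshold ranged from 1 to 3. Members higher in KO ranged from 18 (without KO 1, 51.6% of all genes) to 30 (without KO 3, 61.1% of all genes). Their median ranged from 0.020 (without KO 1) to 0.50 (without KO 3), and members called higher in number 1 from 4 (without KO 1) to 19. Rescaled to a common sum, 31 of 31 members were above 0, as were 86.7% of all genes tested. With quantile normalization 28 were, against 51.7% of all genes. Of 265 values of the 14 members given in full, 258 kept their direction and side of the threshold, and 5 passed in a blocked fit without a pair: Ier5, Jund, Atf3, Btg1 and Egr1. For Jund, Atf3 and Egr1 the pair left out was one in which KO was lower. With a library left out, Egr1 ranged from -0.025 to 0.90 and Atf3 from -0.085 to 0.76, both below 0 without KO 1 alone. The cause was not tested. The members under 1 FPKM are limited by depth and by the 2 decimals of the table.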
